A study of Rattus norvegicus with 12 samples.

Results

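The genes described here encode voltage-gated calcium, sodium and potassium channels, other potassium channels, hyperpolarisation-activated (HCN) channels and transient receptor potential (TRP) channels, with their auxiliary subunits. They were chosen by gene symbol: Cacna, Cacnb and Cacng, Kcn, Scn with a number, Hcn with a number, and Trpc, Trpm or Trpv with a number. This gave 130 of the 14217 genes that a probe set with 1 gene symbol represented, and 202 of the 31042 probe sets that were not array controls. Each gene was represented by the probe set with the highest mean log2 value over all arrays. Trpc4ap has a matching symbol but encodes a protein that associates with TRPC4 and is not itself a channel.

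Pituitary endocrine cells are excitable. Voltage-gated sodium and calcium channels carry the inward current of their action potentials, potassium channels set the resting potential and end each discharge, and calcium entry supports hormone release. In gonadotropes, GnRH acts through its Gq-coupled receptor to release calcium from stores in oscillations, which gate calcium-activated potassium channels, and voltage-gated calcium entry refills the stores.

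RNA was hybridised to 12 Affymetrix Rat 230 2.0 arrays, 1 for each sample, in a search for transcripts that GnRH changes in primary gonadotropes. All cells were anterior pituitary cells of adult female Sprague-Dawley rats whose ovaries had been removed 2 weeks earlier, so both groups share that state. Each of 3 preparations, called enrichment sets I, II and III, pooled 13 to 15 glands, and gravity sedimentation kept the largest cells, about 6% of the yield. The cells were cultured with estradiol and charcoal-treated serum, and on day 3 wells of each set received 10 nM GnRH or the vehicle medium for 40 min. The vehicle group held 6 samples and the GnRH group 6, with 2 of each agent in every set: samples 1 and 2 belong to set I, 3 and 4 to set II, and 5 and 6 to set III. No source used here says that the wells of a set were separate cultures, so p-values measure the spread between these samples, which may be technical.

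By the labels, 40 to 60% of the kept cells stained for LH, so the remainder were other cells. The gonadotrope markers Lhb and Cga exceeded background on 6 of 6 vehicle arrays, Fshb on 4 and Gnrhr on 3. Markers of other pituitary cells were also present: Gh1, Prl and Tshb exceeded background on 6 of 6 vehicle arrays and Pomc on 4. Markers of supporting cells were mixed. Among endothelial genes Kdr and Esam exceeded background on 3 vehicle arrays, Tek on 2 and Pecam1 on 0, and among leukocyte genes Fcer1g did on 4, Cd74 and C1qa on 3 and Ptprc on 0. Of genes listed for the neural lobe, Syp and Snap25, which endocrine cells also express, did on 6, Nefl and Mbp on 3, Oxt on 1 and Avp on 0. In RNA of such a mixture, fewer cells of a type and less RNA per cell cannot be told apart, and no channel can be placed in gonadotropes from these values.

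The level at which a channel counts as present depended on the array. The background limit of an array was the mean plus 2 SD of log2(signal + 16) over 27 control probe sets for bacterial transcripts that a rat sample lacks. On vehicle 1, 2 and 5 and GnRH 1 and 2, where the spiked-in hybridisation controls were dim, that limit lay between 94.9 and 129 signal units. On the other 7 arrays, where they were bright, it lay between 336 and 1267 units. The share of channel genes above the limit ranged from 51.5 to 63.9% on the 5 arrays with dim controls and from 5.38 to 46.9% on the other 7. For all genes these ranges were 74.3 to 80.8% and 15.7 to 61.5%, so on every array a smaller share of channel genes than of all genes exceeded the limit. The split by spike-in signal was made after the data were seen and follows a technical value, but it is bound up with the preparations: set I has only dim controls and set II only bright ones.

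**Figure D1:**
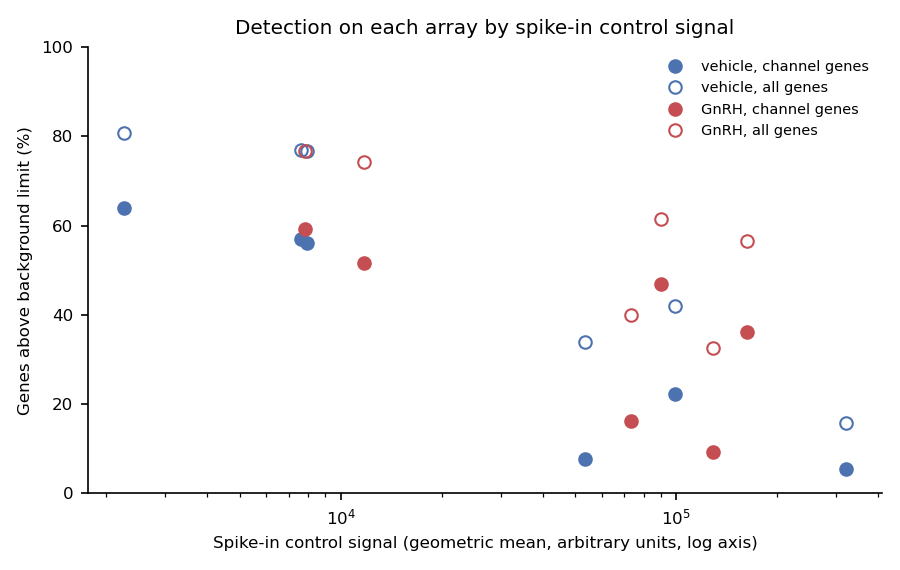
Share of genes above the background limit (y axis, percent) against the geometric mean signal of the spiked-in hybridisation controls (x axis, log scale), 1 filled point per array for the 130 channel genes and 1 open point for all 14217 genes, blue for vehicle and red for GnRH. The 5 arrays on the left detect 51.5 to 63.9% of channel genes, and the 7 on the right at most 46.9%.

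In vehicle samples, 3 of the 130 channel genes (2.31%) exceeded background on all 6 arrays, against 12.3 percent of all genes. They were Kcnip3, Scn2b and Kcnh3. On the 3 vehicle arrays with bright controls alone, 3 channel genes passed, against 12.3 percent of all genes. On the 3 with dim controls, vehicle 1, 2 and 5, 60 channel genes (46.2%) exceeded background on each array and 38 on none, against 71.1 percent of all genes that exceeded it on each. Adding GnRH 1 and 2 left 54 (41.5%), against 67.3 percent. Among GnRH arrays, 11 channel genes (8.46%) exceeded background on all 6, against 26.4 percent of all genes: Cacnb2, Cacnb3, Cacng2, Hcn2, Kcnc4, Kcnip3, Kcnk3, Scn2b, Scn3b, Trpc4ap and Trpv5. Over all 12 arrays 2 did (1.54%), Kcnip3 and Scn2b, against 11.3 percent.

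Kcnip3 encodes a calcium-binding protein, also called DREAM or calsenilin, that associates with Kv4 channels and represses transcription. Its signal had a lowest, median and highest value of 884, 1609 and 2140 in vehicle and 895, 1252 and 1763 in GnRH samples, and the groups overlapped almost entirely. Scn2b encodes the beta-2 subunit of sodium channels, a membrane protein linked to the pore by a disulfide bond. Its values were 1892, 2355 and 3682 in vehicle and 1056, 1674 and 2914 in GnRH samples. The groups overlapped, and GnRH 1, 2, 4 and 6 lay below every vehicle sample. Kcnh3 encodes a voltage-gated potassium channel of the ether-à-go-go-like family. Its values were 394, 976 and 2246 in vehicle and 346, 872 and 1472 in GnRH samples, again with overlap, and the lowest signal of each group came from set I.

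Because the limit was lowest on vehicle 1, 2 and 5 (102, 119 and 94.9 units), the families are described on those arrays, as the plot of genes above background by family does. Where a gene was near the limit the call is uncertain. Just above it were Kcnj6, Scn10a, Cacng6 and Kcnab1, whose lowest of 3 values exceeded the limit by 0.05, 0.08, 0.09 and 0.10 on the log2 scale. Nearest below it were Kcnk9 (-0.014) and Kcnk15 (-0.079). With the highest control as the limit 53 channel genes passed, against 67.9 percent of all genes, and with the mean plus 1 SD 78, against 80 percent. For 46 genes with several probe sets, those probe sets disagreed in 30. Counting a gene by any of its probe sets also gave 60, so the disagreements lie among genes called above. For those genes, being above the limit is a statement about the probe set used. A gene below it is one that the probe sets on the array did not detect on all 3 arrays.

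**Figure D2:**
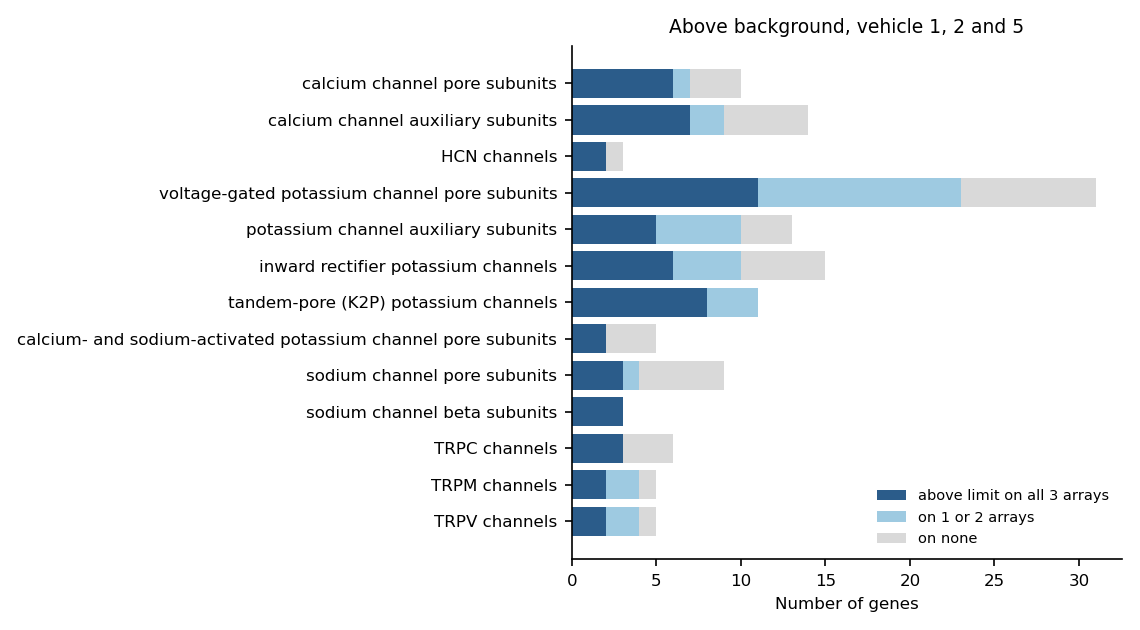
Number of genes of each channel family (x axis) by how many of the 3 vehicle arrays with dim spike-in controls (vehicle 1, 2 and 5) showed them above background: dark blue for all 3, light blue for 1 or 2, grey for none. All 3 sodium channel beta subunits and 8 of 11 tandem-pore potassium channels were above on all 3 arrays, and 3 of 9 sodium channel pore subunits.

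Among calcium channel pore subunits, which form the conducting pathway, 6 of 10 exceeded background on vehicle 1, 2 and 5. The L-type subunits were split: Cacna1c, with signals of 588, 447 and 531, and Cacna1d, with 348, 224 and 167, were above, whereas Cacna1s of skeletal muscle (16.3, 23.3 and 18.1) and Cacna1f of the retina (11.7, 12 and 11) were not. The P/Q-type Cacna1a (276, 385 and 518) and the N-type Cacna1b (455, 496 and 275) were above on each of the 3 arrays. Cacna1e, the R-type subunit, was below on each (24.6, 81.6 and 72.8). Of the low-threshold T-type subunits, Cacna1h (177, 257 and 300) and Cacna1i (219, 379 and 175) were above, and Cacna1g was above on vehicle 2 and 5 but not on vehicle 1 (44.9, 264 and 174).

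Of 14 calcium channel auxiliary subunits, 7 were above on the same 3 arrays. The cytoplasmic beta subunits bring the pore to the membrane. Cacnb2 gave 954, 916 and 916, with little spread among the 3 arrays, and Cacnb1 and Cacnb3 were also above. Cacnb4 was not (51.4, 52 and 36.5). Cacna2d1, an extracellular alpha-2-delta subunit, gave 251, 328 and 370, and Cacna2d3 was above too. Among the Cacng genes, several of which encode chaperones of AMPA-type glutamate receptors, Cacng2 (510, 667 and 674) and Cacng6 were above and Cacng1, Cacng3, Cacng4 and Cacng8 were above on none.

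Of 9 sodium channel pore subunits 3 were above on each of the 3 arrays: Scn7a (1486, 785 and 1479), an atypical sodium-sensing channel, Scn9a (265, 244 and 373), which encodes Nav1.7, and Scn10a (170, 239 and 101). Scn1a, Scn2a and Scn8a, which encode pore subunits of central neurons, were above on none, with Scn8a at 7.4, 9.4 and 14.9. All 3 beta subunit genes on the array were above. Scn3b gave 9464, 8605 and 5012, and Scn4b gave 468, 385 and 393.

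HCN channels carry the inward current that opens on hyperpolarisation and supports pacing. Hcn2 (371, 725 and 676) and Hcn3 (375, 405 and 277) were above on all 3 arrays, and Hcn4 (11, 16.8 and 15.3) on none.

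The largest family by number was the voltage-gated potassium channel pore subunits, of which 11 of 31 were above on all 3 arrays, 12 on some and 8 on none. The Kv4 genes of transient A-type current were all above: Kcnd1 (226, 186 and 522), Kcnd2 (263, 191 and 193) and Kcnd3 (371, 501 and 550). So were Kcnc4 of the fast Kv3 group, the Kv1 genes Kcna2, Kcna4, Kcna5 and Kcna6, Kcnh2 (125, 308 and 391), which encodes the ERG1 channel, Kcnh3, and Kcnq5 (395, 403 and 622) of the Kv7 group that underlies M-type current. Among genes above on none were Kcna1 (6.6, 10.1 and 19.2), Kcnb2 (78.3, 29.6 and 33.9) and Kcnc2 (57.9, 6.8 and 30.2). Of 13 potassium channel auxiliary subunits, 5 were above: Kcnab1 and Kcnab2 of Kv1 channels, Kcnip2 and Kcnip3 of Kv4 channels, and Kcnmb4 of BK channels.

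The calcium- and sodium-activated potassium channels differed from each other in detection. Kcnma1, the pore of the large-conductance BK channel, gave 1940, 1938 and 3269, and its beta-4 subunit gene Kcnmb4 gave 716, 841 and 819. The SK genes Kcnn1 and Kcnn3 and the IK gene Kcnn4, of small and intermediate conductance, were not above on any of these arrays; the SK gene Kcnn2 was not analysed here. Kcnn1 gave 83.7, 74.8 and 51.1, Kcnn3 gave 78.1, 112 and 44.8, and Kcnn4 gave 2.6, 13.8 and 6.3. The sodium-activated Kcnt1 was above at 235, 140 and 191. SK channels are the ones best known to follow the calcium oscillations of gonadotropes. Kcnn1, Kcnn3 and Kcnn4 exceeded background on 0 GnRH arrays as well, which says only that these probe sets did not detect them.

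Inward rectifiers were above in 6 of 15 cases. Kcnj11, the Kir6.2 pore of ATP-sensitive channels, gave 622, 801 and 774, and Kcnj8, the other pore of that type, gave 17.2, 25.5 and 20.7. The G-protein-gated subunits Kcnj3 (205, 261 and 325), Kcnj5 (704, 780 and 707) and Kcnj6 (242, 123 and 241) were above, and their relative Kcnj9 (59.4, 8.4 and 19.7) was not.

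The tandem-pore (K2P) channels, which carry background potassium current, had 8 of 11 genes above on all 3 arrays and 0 below on all. Kcnk2 of the mechanically gated TREK group gave 441, 416 and 599. Kcnk3, the acid-sensitive TASK-1, gave 295, 556 and 2892, so that vehicle 5 stood well above the other 2 arrays. Kcnk1, Kcnk4, Kcnk6, Kcnk10, Kcnk12 and Kcnk13 completed the group.

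TRP channels are cation channels gated by lipids, calcium, temperature or chemical ligands. Trpc1 (436, 286 and 392), Trpc2 (394, 298 and 300) and Trpc4ap were above, whereas Trpc4, Trpc5 and Trpc6 (3.7, 9.6 and 8.5) were above on none. Trpm7 (743, 717 and 1379), a channel fused to a kinase, and Trpm1 (112, 143 and 163) were above. Trpm4, the calcium-activated cation channel, was above on vehicle 1 and 2 only (157, 198 and 86.1). The calcium-selective Trpv5 (449, 616 and 517) and Trpv6 (141, 218 and 363) were above on all 3 arrays, and Trpv4 (19.4, 28.5 and 54.4) on none.

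GnRH against vehicle was compared over all 12 samples on log2(signal + 16) with the enrichment set in the model, and a difference on this scale understates the change of dim genes. No channel gene that was tested passed the threshold after 40 min of GnRH, at a precision that leaves sizeable differences possible. The test covered 69 of the 130, those at or above the 40th percentile of mean log2 signal, and 57 of these were among the 60 above background on vehicle 1, 2 and 5. Of the 69, 0 passed limma's test with Benjamini-Hochberg adjustment over all 18625 probe sets (smallest adjusted p = 0.981), against 0.00936 percent of the 10680 tested genes, which is the Fosb gene alone. At an unadjusted p under 0.05 by limma, 0 were higher, against 1.8 percent of tested genes, and 1 was lower, Kcnk12, against 1.49 percent. In 36 the mean was higher and in 33 lower after GnRH, with a median log2 difference of 0.02 (quartiles -0.34 and 0.30), beside 0.04 (-0.24 and 0.33) over all tested genes. In 0 of the 69 did the 6 GnRH values lie wholly apart from the 6 vehicle values, against 0.131 percent.

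The precision of these differences was limited. The median standard error was 0.53 on the log2 scale for channel genes and 0.43 for all tested genes. The median absolute log2 difference between same-agent arrays of a set, over tested channel genes, was 0.36 (vehicle) and 0.33 (GnRH) in set I. It was 1.08 and 0.74 in set II, and 0.71 and 1.25 in set III. Set I, whose arrays had dim spike-in controls, was thus the preparation in which like samples lay closest.

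Differences were sorted by role as well. Calcium channel pore subunits had 4 of 7 tested genes higher (median 0.13), and their auxiliary subunits 6 of 7 (0.43). That second median is the value of Cacng2, for which another tested probe set gave -0.99. Voltage-gated potassium channel pores had 5 of 16 higher and 11 lower (-0.17), and potassium channel auxiliary subunits 0 of 5 higher (-0.32). Inward rectifiers had 4 of 8 higher (0.003), and tandem-pore channels 5 of 8 (0.08). Sodium channel pores had 2 of 3 higher (0.39) and beta subunits 2 of 3 (0.40). The calcium- and sodium-activated potassium channels had 1 of 2 higher (-0.13), HCN channels 2 of 2 (0.18), TRPC genes 2 of 3 (0.28), TRPM genes 2 of 3 (0.08) and TRPV genes 1 of 2 (-0.002). With 0 of the 69 past the adjusted test, these family medians are descriptions, and differences between families were not tested.

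**Figure D3:**
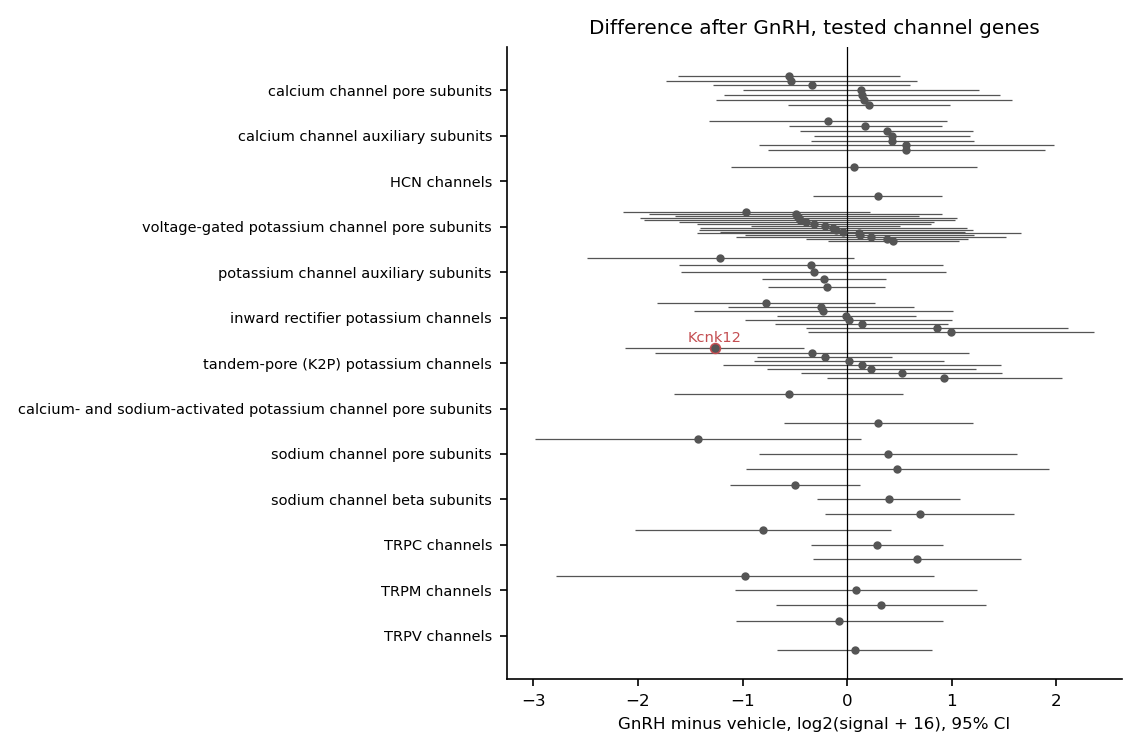
Log2 difference in signal + 16, GnRH minus vehicle (x axis), for each of the 69 tested channel genes with its 95% confidence interval from limma, ordered within family (y axis); Kcnk12 is in red. Intervals of 68 genes cross 0, and that of Kcnk12, from -2.12 to -0.41, does not.

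Kcnk12 encodes THIK-2, a tandem-pore subunit that is largely held in the endoplasmic reticulum when expressed alone. Its signal on vehicle 1 to 6 was 744.5, 1749, 1173, 1473, 1334 and 738, and on GnRH 1 to 6 it was 629, 526, 743, 588, 639 and 103. All 6 GnRH values lay at the bottom of the vehicle range or below it, and the groups met only where GnRH 3 slightly exceeded vehicle 6. GnRH was lower in 35 of 36 GnRH-vehicle pairs. The GnRH minus vehicle difference was -1.27 ± 0.40 on the log2 scale (SE over 6 samples per group), or 2.41-fold lower after GnRH, with a 95% interval of -2.12 to -0.41. In limma's fit the unadjusted p was 0.00625 and the Benjamini-Hochberg adjusted p was 0.981, so it did not pass. Set I gave -0.97, set II -0.98 and set III -1.85, and omitting any 1 array kept the value between -1.50 and -0.89. Both GnRH values of set III, 639 and 103, lay below the limits of their arrays (745 and 379), so the size in that set is uncertain. On the 5 arrays with dim spike-in controls it was -1.04 and on the other 7 it was -1.16. The signal exceeded the background limit on 5 vehicle and 4 GnRH arrays. Over the pituitary marker lists the only gene lower at an unadjusted p under 0.05 was Pomc (log2 -1.77 ± 0.50 SE, limma adjusted p = 0.981), of corticotropes and melanotropes. Pomc lay below the limits of GnRH 3 to 6. Of the same list, Tbx19 (0.64) and Pcsk2 (0.56) were higher after GnRH. The summed signal of the 3 markers of that list on the array ran from 943 to 2884 in vehicle and from 1262 to 2367 in GnRH samples. Its part in the Kcnk12 difference was not tested.

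**Figure D4:**
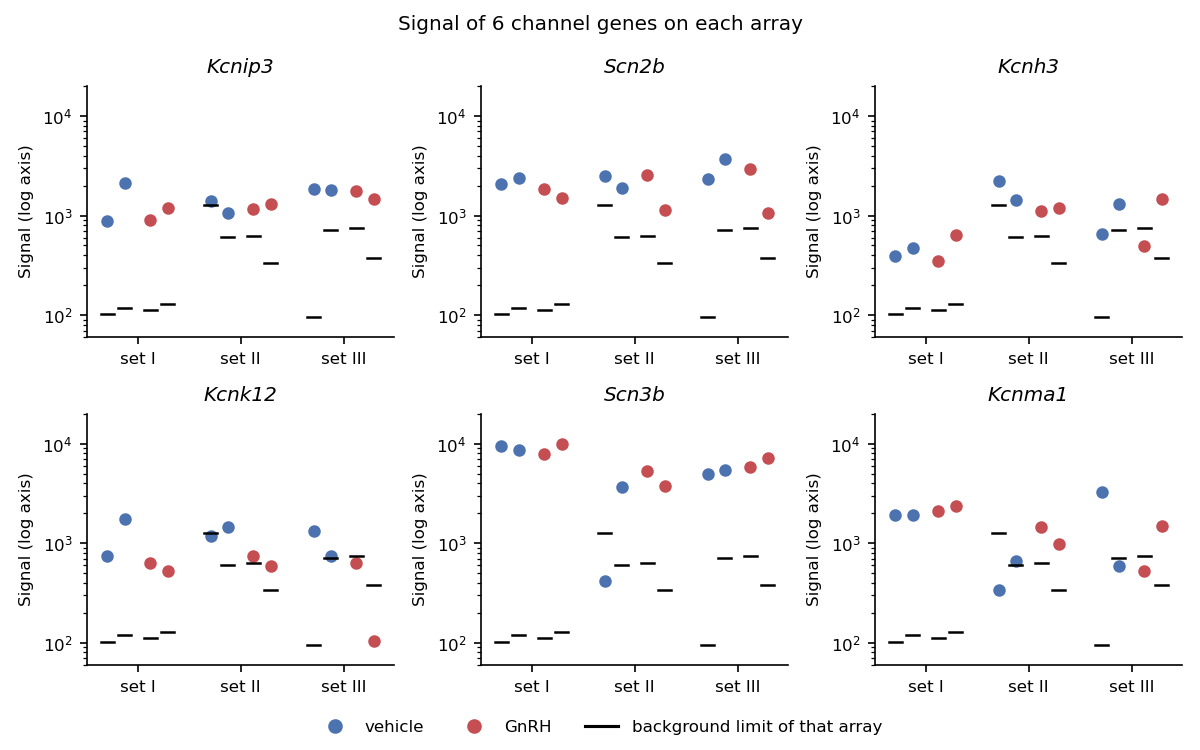
Signal (y axis, log scale) of 6 channel genes on every array, grouped by enrichment set (x axis), blue for vehicle and red for GnRH; each black bar is the background limit of the array under the point at the same place. The bars are at 94.9 to 129 units in set I and vehicle 5 and at 336 or more elsewhere, so Kcnip3 and Scn2b clear them on all 12 arrays, and Kcnk12 is lower after GnRH in each set.

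Of the other 5 channel genes nearest the threshold on the lower side, Scn2b was lower in all 3 sets and the rest were not. Kcnip2 encodes KChIP2, a calcium-binding subunit of Kv4 channels. Its lowest, median and highest signals were 298, 524 and 1423 in vehicle and 48, 391 and 542 in GnRH samples, which overlap except for GnRH 4 and 6. The log2 difference was -1.21 ± 0.60 (SE), and by set it was 0.19, -2.39 and -1.45. Without GnRH 4 it was -0.68. Vehicle 6 and GnRH 3 to 6 lay below the limits of their arrays, and other probe sets of the gene, below the filter, gave 0.76 and -0.06. Scn9a gave 31.9, 281 and 1079 in vehicle and 20.7, 92.5 and 308 in GnRH samples, and its difference of -1.43 ± 0.74 was 0.26, -1.30 and -3.24 by set and -0.88 without vehicle 3. GnRH 4, 5 and 6 gave 36.2, 21.3 and 20.7. Vehicle 3, 4 and 6 and GnRH 3 to 6 all lay below the background limits of their arrays, so the size is uncertain.

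Kcnh6, an ERG channel gene, gave 49.1, 401 and 707 in vehicle and 40.1, 115 and 489 in GnRH samples, with overlap throughout. It differed by -0.97 ± 0.56 (0.08, -0.77 and -2.20 by set, and -0.57 without vehicle 6). Its signal exceeded the limit on 3 vehicle and 2 GnRH arrays. Vehicle 6, GnRH 5 and GnRH 6 lay below theirs, so the size in set III is uncertain. Kcnj11 gave 622, 804 and 973 in vehicle. In GnRH samples it gave 63.4, 654 and 1156, and GnRH 3 alone was far below the rest. Kcnj11 lay below the limits of vehicle 3, GnRH 3 and GnRH 5, so the size in set II is uncertain. Its difference was -0.78 ± 0.49 and 0.003, -2.02 and -0.31 by set, and -0.25 without GnRH 3. Its other tested probe sets gave 0.43 and -1.01. Scn2b, which exceeded background on all arrays, differed by -0.50 ± 0.29, with -0.42, -0.35 and -0.73 by set and -0.29 without GnRH 6. A further probe set of Scn2b, below the filter, gave 0.30.

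On the higher side, Kcnk10, which encodes the TREK-2 background channel, had signals of 45.1, 226 and 436 in vehicle and 205, 343 and 632 in GnRH samples. The ranges overlapped, and vehicle 3 and 4 were lowest. Its log2 difference was 0.93 ± 0.53 (SE), nearly all from set II (0.12, 2.69 and -0.03). Vehicle 3, vehicle 4 and GnRH 3 lay below the limits of their arrays, so the size in set II is uncertain. The difference over all sets was 0.59 without GnRH 4, and another probe set, below the filter, gave -1.05. Kcnj16 and Kcnj10 encode Kir5.1 and Kir4.1, inward rectifiers that pair in one channel and are known from glia and kidney. Kcnj16 differed by 0.99 ± 0.65 (-0.58, 0.74 and 2.82 by set) and Kcnj10 by 0.86 ± 0.59 (-0.12, 0.62 and 2.07). Kcnj16 differed by 0.51 without vehicle 5 and 0.64 without GnRH 6, and Kcnj10 by 0.39 without GnRH 5. Each exceeded the limit on 1 vehicle array, so these differences rest on values near background.

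Scn3b, a sodium channel beta subunit gene, gave 419.8, 5237 and 9464 in vehicle and 3722, 6511 and 9967 in GnRH samples. Vehicle 3 stood alone at the low end and the remaining values overlapped. The difference of 0.69 ± 0.43 was -0.03, 1.81 and 0.31 by set and 0.17 without vehicle 3. Its other tested probe set gave -0.41. Trpc1 gave 72.9, 320 and 436 in vehicle and 215, 388 and 451 in GnRH samples, with vehicle 3 and 4 lowest. It differed by 0.66 ± 0.47 (-0.22, 2.16 and 0.06), or 0.44 without GnRH 4. Here too vehicle 3, vehicle 4 and GnRH 3 lay below the limits of their arrays. Kcnc4 gave 390, 512.5 and 899 in vehicle and 498, 784 and 1292 in GnRH samples. It was higher in each set by 0.32, 0.80 and 0.20 (0.44 ± 0.30 over all), with overlapping ranges.

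**Figure D5:**
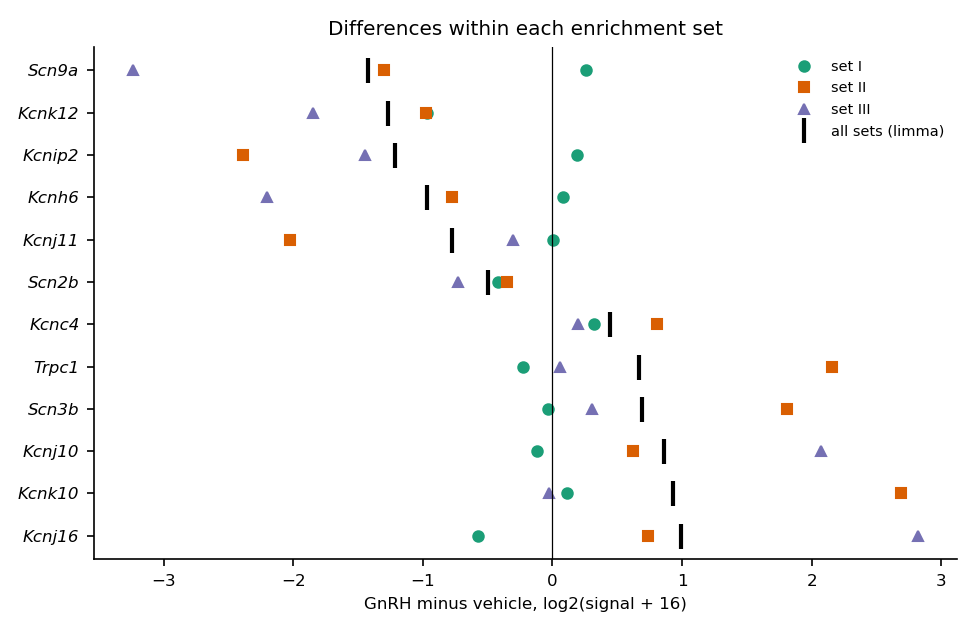
Log2 difference, GnRH minus vehicle (x axis), of the 12 channel genes with the smallest unadjusted p, 6 in each direction, within enrichment set I (circle), II (square) and III (triangle), and over all sets by limma (black bar). Kcnk12, Scn2b and Kcnc4 lie on one side of 0 in all 3 sets, while the other 9 have at least 1 set on the other side of 0 or, for Kcnj11, at 0.003.

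Agreement in direction over all 3 sets was at or below the level of all genes. Higher in each set were 8 of 69 channel genes (11.6%), against 12.3 percent of tested genes: Cacna1i, Cacnb1, Hcn2, Kcnc4, Kcnk13, Kcnq5, Scn4b and Trpm1. Lower in each set were 6 (8.70%), against 11.4 percent: Kcne3, Kcnk2, Kcnk12, Kcnmb4, Kcnv2 and Scn2b. Kcnmb4, the BK beta-4 subunit gene, differed by -0.24, -0.18 and -0.25 from set I to set III, and its pore Kcnma1 by 0.21, 1.32 and -0.63. Kcnma1 signals were 336, 1300 and 3269 in vehicle and 530.5, 1478 and 2376 in GnRH samples, with full overlap. Kcnk2 differed by -0.04, -0.27 and -0.34, and Hcn2 by 0.15, 0.56 and 0.17.

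The study's criterion of fold and concordance was applied to signal + 16 as a mean difference of at least 1.5-fold, with at least 50% of the 36 GnRH-vehicle pairs also reaching 1.5-fold in that direction. By it 3 channel genes were up (Kcnk10, Kcnj16 and Kcnj10), against 5.79 percent of tested genes. Down were 5 (Kcnk12, Kcnip2, Scn9a, Kcnh6 and Trpm7), against 6.24 percent. A difference of at least 1.5-fold in either direction was seen in 12 of 69 channel genes (17.4%), beside 19.3% of all tested genes. The criterion has no error term, and of these 8 genes only Kcnk12 had the same direction in all 3 sets. Trpm7 ranged from 7.75 (vehicle 6) to 1379 in vehicle and from 15.4 to 856 in GnRH samples, with a difference of -0.98 ± 0.85. It exceeded the limit on 3 vehicle and 2 GnRH arrays, and its other probe set, below the filter, gave 0.84.

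The 61 channel genes below the filter were compared only in a fit without the filter, where 0 passed and 3 had an unadjusted limma p under 0.05. No share of all genes below the filter is given beside this count, so it is not read as a result about channels. Kcnj8 differed by 1.55 ± 0.61 (SE) and Kcnk9, the TASK-3 gene, by 1.38 ± 0.60. Kcnj8 exceeded the limit on 0 vehicle arrays and 1 GnRH array, and Kcnk9 on 2 vehicle and 2 GnRH arrays. Kcna2, a Kv1 pore, differed by -1.36 ± 0.59, with signals of 117, 166.5 and 919 in vehicle and 48.1, 69.4 and 168 in GnRH samples. It exceeded the limit on 3 vehicle and 0 GnRH arrays, and the groups overlapped. In set I, where the limit was low, vehicle 1 and 2 gave 117 and 197 and GnRH 1 and 2 gave 53.9 and 84.9. These genes were chosen after their values were seen.

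Within set I alone limma gave an unadjusted p under 0.05 for 3 tested channel genes, each lower: Kcnk12 (-0.97), Kcna6 (-1.44) and Kcnab2 (-1.05), against 2.11 percent of tested genes lower in that fit. None was higher, against 1.9 percent, and 0 passed after adjustment. Kcna6 is a Kv1 pore and Kcnab2 a cytoplasmic subunit of Kv1 channels. Neither was lower in every set, with 0.30 for Kcna6 and 0.67 for Kcnab2 in set II.

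Levels were also compared between the preparations. By the moderated F test in limma 0 of 69 channel genes differed between sets after adjustment, against 6.87 percent of tested genes, and 12 did at an unadjusted p under 0.05, against 29.2 percent. The smallest adjusted p-values were 0.0537 for Kcnh3, 0.0616 for Kcnv2, 0.0692 for Kcnq1, 0.0700 for Scn3b, 0.0720 for Kcnh6 and 0.0793 for Cacna1g. Kcnh3 had means of 8.87, 10.51 and 9.82 on the log2 scale for set I, set II and set III, and Scn3b 13.13, 11.22 and 12.51. Set I also differs from set II in spike-in signal, and preparation and array quality cannot be told apart there. Leaving out vehicle 5, the array of set III with dim controls, gave 4 channel genes past the threshold, against 14.1 percent of all tested genes: Cacna1g, Kcnh3, Kcnma1 and Trpm7. Leaving out GnRH 5 or GnRH 6 gave 2, Kcnh3 and Kcnv2, against 6.69 and 5.94 percent. Without vehicle 3 it was Scn3b, against 10.4 percent, and without GnRH 4 Kcnq1, against 4.83 percent.

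The GnRH difference depended on the set in 0 channel genes after adjustment of limma's interaction F test and in 1 at an unadjusted p under 0.05, against 5.12 percent of tested genes. That gene was Kcnk10, for which limma's F test across the fit gave an unadjusted p of 0.0448.

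A list of genes that work with these channels was compared in the same fit. It held 66 regulators, store-operated entry and calcium store genes, calcium pumps and exchangers, sodium pump and chloride channel genes, of which 60 were on the array. Of these, 46 exceeded background on vehicle 1, 2 and 5, where 71.1 percent of all genes did. Of 50 tested, 28 were higher and 22 lower after GnRH, with a median log2 difference of 0.08. In limma's adjusted test 0 passed, against 0.00936 percent of tested genes. At an unadjusted limma p under 0.05, 3 were higher, against 1.8 percent of tested genes, and 1 was lower, against 1.49 percent. Higher were Fgf12 (1.25), a modulator of sodium channels, Atp1b1 (0.75), a sodium pump subunit, and Ttyh1 (1.49), listed with the chloride channels. Lower was the inositol trisphosphate receptor gene Itpr3 (-1.42). Single genes of this list were named after their values were seen. Fgf12 and Ttyh1 each exceeded background on 1 vehicle array. Of the 10 genes below the filter, 2 had an unadjusted p under 0.05 in the fit without it, a count given without the share of all such genes. The ryanodine receptor gene Ryr2, a calcium release channel of stores, differed by -2.03 ± 0.56 (SE; limma unadjusted p = 0.00167). Its signal was 144, 133, 871, 342.5, 110 and 74.8 on vehicle 1 to 6 and 50.2, 45.8, 75.3, 27, 17.3 and 18.6 on GnRH 1 to 6. The groups overlapped only where GnRH 3 exceeded vehicle 6. Ryr2 was above background on vehicle 1, 2 and 5 only. Its values on vehicle 3, 4 and 6 and on every GnRH array lay below the limits, so the size is uncertain. Rims2, a presynaptic scaffold gene, differed by 1.57 ± 0.57 and exceeded background on 0 vehicle arrays.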

How the data were processed

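The values are probe set intensities that the authors deposited on a linear scale; per the submitters' processing notes they were computed with GCOS (GeneChip Operating System), whose version is not given in the sources used here. Labelling used amplification in a pair of T7 rounds, per the labels' protocols, which shortens products toward the 3' end. Trimmed means of 497 to 499 on the 12 arrays show that the deposited intensities had been scaled to a common target.

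Arrays were brought to a common mean of 500, with 2% trimmed at each end, and values were taken as log2(signal + 16). Probe sets at or above the 40th percentile of mean log2 signal were tested (18625) in limma 3.58.1 under R 4.3.3 with enrichment set and agent in the model, an intensity trend and Benjamini-Hochberg adjustment, with a threshold of 0.05. F tests in the same model compared the sets and tested the set-by-agent interaction. Symbols came from the platform annotation, and 130 of 130 member genes had an Entrez identifier in RefSeq's gene table with the same symbol.

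Genes named by rule are those of a list of channels of pituitary physiology and those above background in all vehicle arrays. Up to 6 in each direction with the smallest p, and up to 6 with the smallest p between sets, were added. Others, such as Scn7a, Kcnj5 and Trpv5 in the family descriptions, were named after their values were seen. Members, lists and rules were chosen with earlier results of these data known. Replicate numbers were checked as pairs and did not pair the samples beyond their set. The number of arrays limits the precision. Alternatives varied the pseudocount, filter, scaling, block, variance trend, arrays, background limit and probe set. Those that split arrays by spike-in signal or put it in the model were added after the data were seen. No per-sample column of other samples was present.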

Additional observations from a re-analysis of the deposited data

Results flagged for a closer look

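The signals of 43 channel genes were searched for an array that stands apart from the other 5 of its agent on the log2 scale, in 86 groups of 6. Chance marks about 1 in 20 such groups, and 7 were found. Kcnk12 gave 103.4 on GnRH 6, against 526 to 743 on the other GnRH arrays. Without it the Kcnk12 difference was -0.89. Scn3b gave 419.8 on vehicle 3, against 3709 to 9464. Cacna1b, the N-type calcium channel pore, gave 27.4 on vehicle 3, against 275 to 567, and 48.7 on GnRH 5, against 296.5 to 611. Cacna1c, an L-type pore, gave 34.2 on GnRH 4, against 283 to 606. Cacna2d1 gave 33.6 on GnRH 6, against 261.5 to 638. Cacna1h, a T-type pore, was high on vehicle 3 at 978, against 176.5 to 333. All 7 values are from arrays with bright spike-in controls, and each lay below the background limit of its array. That includes the high Cacna1h value, 978 against a limit of 1267 on vehicle 3.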

How the results depend on the processing

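The count of 0 channel genes called for GnRH held under all 27 settings of the limma fit, and the study's criterion gave 8. The median difference ran from -0.06 to 0.14. With the replicate block the fit called 0, and 3 had an unadjusted p under 0.05 (Kcnip2, Kcnk12 and Scn9a); same-numbered samples correlated at 0.65, 0.52, 0.15, 0.16, -0.22 and 0.10, and at -0.14 to -0.03 after the set mean was removed. The 3 genes above background in all 6 vehicle arrays became 8 with the highest control as the limit, 19 with the mean plus 1 SD and 30 with the 40th percentile of probe sets. They became 10 when 5 of 6 arrays sufficed and 60 on the 3 arrays with dim controls, against 71.1 percent of all genes there. Leaving out each vehicle array gave 3 to 9, the 9 without vehicle 3. With these limits on the 3 arrays with dim controls, the share of all genes itself ran from 67.5 to 80 percent. The other detection counts have no such share beside them and describe the setting only. The 0 genes differing between sets became 3 with a pseudocount of 64 (Kcnh3, Kcnv2 and Scn3b) and 1 with no filter (Kcnc2). Leaving out each array gave 0 to 4. The cause was not tested. Counts with the replicate block, the pseudocount of 64 and no filter have no share of all genes beside them.

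Of 439 alternative log2 differences of 16 named genes, 417 kept their sign and 22 did not. Kcnk12, Kcnc4 and Hcn2 kept it in all. In set I alone, values of opposite sign were 0.19 for Kcnip2, 0.26 for Scn9a, 0.077 for Kcnh6, 0.0028 for Kcnj11, 0.11 for Kcnh3, -0.034 for Scn3b, -0.58 for Kcnj16, -0.12 for Kcnj10 and -0.22 for Trpc1. In set II alone Kcnip3 gave 0.0086, and in set III alone Kcnk10 gave -0.027 and Kcnma1 -0.63. On the 5 arrays with dim controls Scn9a gave 0.083, Kcnj16 -0.080, Trpc1 -0.27 and Kcnma1 -0.039. Other probe sets gave 0.76 for Kcnip2, 0.30 for Scn2b, 0.43 for Kcnj11, -1.05 for Kcnk10, -0.41 for Scn3b and 0.19 for Kcnip3.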
